A study of Mus musculus with 2 samples.

Results

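The macrophages and microglia of the mouse eyecup were taken from 2 single-cell RNA-seq libraries at E13.5, 1 of control and 1 of *Six3* and *Six6* double knockout (DKO) eyecups. A cell was a member when it held at least 1 UMI (unique molecular identifier, 1 captured RNA molecule) each of at least 3 of the 5 genes *C1qa*, *C1qb*, *C1qc*, *Tyrobp* and *Fcer1g*. Kept were cells that had over 200 and under 6000 genes, under 20% of UMIs from mitochondrially encoded genes and under 20% from *Hba* and *Hbb* hemoglobin genes. Of 20064 kept cells 185 were members, 39 of 8597 in control and 146 of 11467 in DKO.

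The control eyecups came from a Six3+/-;Six6+/- embryo and the DKO eyecups from a Six3F/F;Six6-/-;a-Cre littermate. Both carried at least 1 mutated allele of each gene, so neither was wild type. *Six6* was lost in the germline and thus in every DKO cell, whereas *Six3* was lost only where a-Cre is active, in the peripheral retina. Macrophages enter the eye from outside it. The control embryo had no a-Cre, which is marked by GFP, and DKO eyecups were picked by their GFP-positive rosettes, so genotype, Cre and embryo cannot be told apart.

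Macrophages of the embryo derive from the yolk sac and later from the fetal liver, and they settle in the retina, around its vessels and in the hyaloid vasculature. Microglia are the resident macrophages of the retina and brain, where they clear dying cells and prune synapses, and are known by genes such as *P2ry12*, *Sall1* and *Fcrls*. Border and perivascular macrophages lie along vessels and linings and are known by genes such as *Mrc1*, *Lyve1*, *Pf4* and *F13a1*.

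Each genotype is represented by 1 library, which leaves nothing to replicate, and genotypes are compared by values without a test. All 95% intervals are exact and cover counting error only, not the variation between embryos or dissections. The control library held 10315 cells with a median of 7486 UMIs and the DKO library 12672 cells with a median of 5787. Over kept cells *Six6* was at 279.7 UMIs per 1000000 (CPM, summed over cells) in control and 43.9 CPM in DKO, and *Six3* at 344 and 333 CPM. Members, which are not known to express *Six6*, held 13 of its UMIs in control and 12 in DKO. The libraries shared 22 cell barcodes, of which 1 belonged to a DKO member and none to a control member.

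The 5 genes that chose the members are a description and support nothing by themselves. They encode the 3 chains of complement C1q (*C1qa*, *C1qb*, *C1qc*), the adaptor DAP12 (*Tyrobp*) and the common gamma chain of Fc receptors (*Fcer1g*), both of which pass signals from surface receptors. *C1qa* was at 1401 CPM in control and 1376 CPM in DKO members, and *Tyrobp* at 1807 and 1632 CPM. *C1qb* was at 1581 and 1338 CPM, *C1qc* at 1258 and 1009 CPM, and *Fcer1g* at 1304 and 1319 CPM. The log2 ratio of DKO over control ran from -0.32 for *C1qc* (-0.53 to -0.10) to 0.02 for *Fcer1g* (-0.18 to 0.22). Per cell, the median share of UMIs in the 5 genes was 0.696% in control and 0.864% in DKO members.

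All 5 genes were found in 26 of 39 control and 81 of 146 DKO members, and 3 of them in 8 and 31 cells. Just inside the rule, cells with 3 genes had medians of 1054 UMIs and 5.5 marker UMIs in control, and 902 UMIs and 5 marker UMIs in DKO. Just outside it, 8 control and 29 DKO cells with 2 genes had medians of 7768 and 3874 UMIs and of 2.5 and 2 marker UMIs. By these medians the cells with 2 genes held more UMIs and fewer of them in the markers. Among neurons, defined as kept non-members with at least 4 of *Stmn2*, *Gap43*, *Nefl*, *Elavl4* and *Sncg*, a UMI of any of the 5 genes was found in 20 of 1069 control cells (1.87%, median 8651 UMIs) and 31 of 2242 DKO cells (1.38%, median 7004 UMIs).

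Members spanned a wide range of RNA content. In control the members held 525 to 17937 UMIs with a median of 4449, and in DKO 509 to 28120 with a median of 4322, and their sums were 194796 and 703410 UMIs. Under 2000 UMIs were found in 15 control and 54 DKO members. Cells with under 3% mitochondrial UMIs were 11 of 39 control and 48 of 146 DKO members, and their medians of 908 and 943 UMIs were far below those of the other members, 6234 and 5765 UMIs. The 5 marker genes held 0.25% or more of the UMIs in 37 control and 122 DKO members, called marker-rich here, and 2 control and 3 DKO cells lay between 0.2% and 0.3%. This limit was set after the values were seen.

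**Figure D1:**
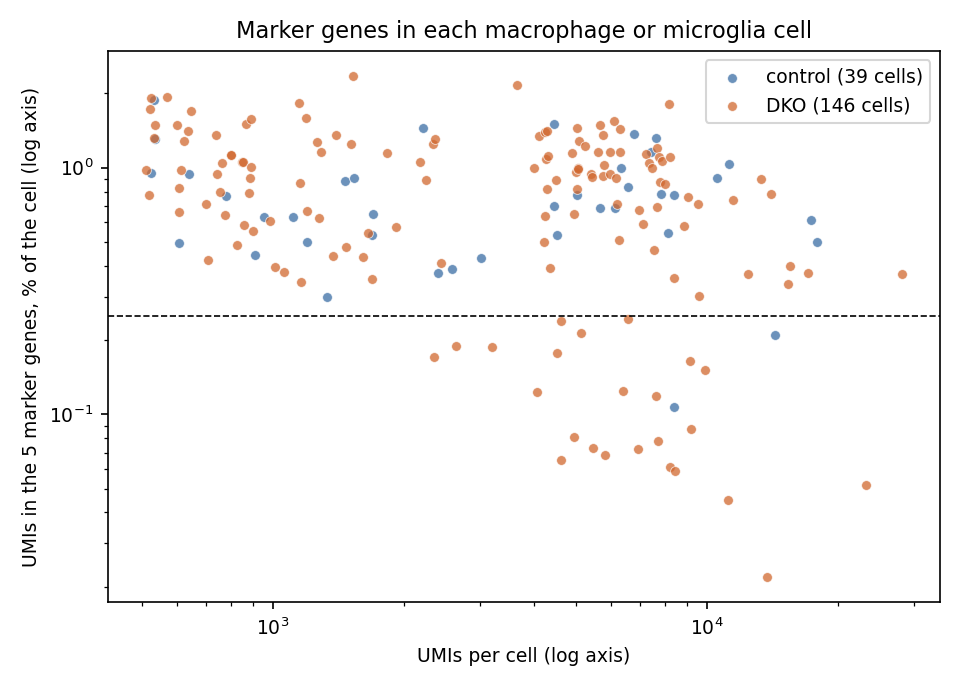
Each point is 1 member cell, with its UMIs on the x axis and the share of these UMIs in the 5 marker genes on the y axis, both on log axes; the dashed line is at 0.25%. Cells under the line are 2 control and 24 DKO members, with medians of 11369 and 6497 UMIs.

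Members were more frequent in the DKO library. They made up 0.454% of kept cells in control (0.323 to 0.620) and 1.27% in DKO (1.08 to 1.5). The share was 2.81 times higher in DKO (1.96 to 4.11). The ratio lay between 2.47 and 3.07 under the other rules tried, and among cells thinned at random to 2000 UMIs the shares were 0.30% and 0.766%. Before the hemoglobin limit 1 further control and 6 further DKO cells met the marker rule. Dissection also sets how many cells outside the retina enter a library, and with 1 embryo per genotype it cannot be told apart from genotype.

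The label was checked against defining markers of other blood and eye cells. Of 16 microglia markers 11 reached a mean of 100 CPM over the 2 libraries, the limit for genes counted below, and summed to 9543 CPM in control and 6635 CPM in DKO members, against 630 and 778 CPM in other kept cells. Of 12 monocyte markers only *Ms4a6c*, which macrophages also express, reached it, at 175 and 284 CPM, and 5 were at 0 in all members. The 11 neutrophil markers summed to 61.6 and 35.5 CPM with 9 at 0, and the 12 mast cell markers to 5.13 and 5.69 CPM with 11 at 0. Of 9 megakaryocyte markers *Plek*, a signalling protein of macrophages as well, held 115 of 116 UMIs in control and 229 of 232 in DKO, and 6 were at 0. The 12 lymphoid and dendritic cell markers summed to 118 and 35.5 CPM with 8 at 0. Endothelial markers summed to 56.5 and 61.1 CPM with 4 of 11 at 0, and mesenchymal markers to 10.3 and 5.69 CPM with 5 of 10 at 0. Pigment cell markers summed to 35.9 and 89.6 CPM with 3 of 8 at 0. Members therefore carried macrophage genes with little RNA of vessel, connective tissue or the other blood cells named here. Other lists were not as low. Red blood cell markers summed to 991 and 566 CPM and lens markers to 544 and 1744 CPM. Neuron markers summed to 308 and 1869 CPM and retinal progenitor markers to 657 and 658 CPM.

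Genes of macrophage recognition and signalling stood highest over the other cells. Of 1539 genes with a mean of at least 100 CPM, 23.7% were at least 2-fold higher in members than in other kept cells in both libraries. All 5 counted complement genes and 10 of 10 counted Fc receptor and ITAM genes passed this fold, but both lists hold genes that chose the members. Of genes that did not choose the members it was passed by 28 of 29 counted lysosomal genes and 10 of 10 counted chemokine and cytokine genes. *Fcrls*, an Fc receptor-like gene of microglia, was at 673 and 623 CPM in members and at least 2760 times its level in other cells in either library. *Trem2*, a lipid-sensing receptor that signals through DAP12, was at 683 and 576 CPM, a ratio of at least 2552. *Csf1r*, the receptor for the growth factors on which macrophages depend, was at 821 and 606 CPM, and *Cx3cr1*, the fractalkine receptor of microglia, at 406 and 530 CPM. *Spi1*, which encodes the macrophage transcription factor PU.1, was at 375 and 273 CPM. The chemokines *Ccl4* (1412 and 1471 CPM) and *Ccl3* (1242 and 863 CPM), the complement receptor *C3ar1* (431 and 353 CPM) and the protease *Ctss* (970 and 724 CPM) were also among the 15 genes highest over other cells, as were *C1qa*, *C1qb* and *C1qc*. Each of the genes named here had under 2 CPM in the other kept cells of both libraries.

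PU.1 binds purine-rich sites with a GAGGAA core. The RefSeq promoter windows (GRCm38.p6, 250 bases before to 50 after each start) held GAGGAA on either strand (TTCCTC when it lies on the other strand) in 28.3% of 32851 windows. Of the 15 genes highest over other cells 8 had a window and 6 of these held the core. Of the 16 border macrophage markers 11 had a window and 7 held it, and of the 16 microglia markers 12 had one and 6 held it. A match is a description of the sequence, and binding was not measured. The 30 bases around the last match within the 250 bases before the start are shown for 7 of these genes. They read 5′ to 3′ on the gene's own strand, with the core in capitals. Matches after the start were not considered for these stretches.
C1qb: gcagcaggatggGAGGAAcagaggggtgat
C1qc: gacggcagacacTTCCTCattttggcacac
Fcrls: caagtctgtaaaGAGGAAggacgtttgctt
Trem2: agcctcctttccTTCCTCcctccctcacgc
Ccl3: cccggattccatTTCCTCatctgctagggc
Ctss: gacacagggttgGAGGAAaactttgtcctg
Mrc1: aaaagggacagcTTCCTCtgtcctcctttt
The *C1qb* stretch lies at chr4:136886213-136886242 and *C1qc* at chr4:136893090-136893119, both on the minus strand of the C1q gene cluster. *Fcrls* lies at chr3:87263651-87263680 and *Ccl3* at chr11:83649394-83649423, both minus, and *Trem2* at chr17:48346349-48346378, *Ctss* at chr3:95526610-95526639 and *Mrc1* at chr2:14229367-14229396, all plus. The core began 30 bases before the annotated start in *C1qb*, 33 in *Ccl3*, 35 in *Mrc1*, 40 in *Trem2*, 144 in *Fcrls*, 164 in *Ctss* and 193 in *C1qc*.

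The comparison of DKO with control members asked which genes of these cells differed between the libraries. Of the 1539 genes 64 (4.16%) were at least 2-fold higher and 53 (3.44%) at least 2-fold lower in DKO members, and the median log2 ratio was 0.02. Since control members held fewer UMIs in sum, the width of an interval is set mainly by the control count. Without each library's richest cell for the gene in question, 63 of the 64 higher and 42 of the 53 lower genes were still past the fold.

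Microglia genes tended to be lower in DKO members. Of the 11 counted, 0 were 2-fold higher and 2 were 2-fold lower (4.16% and 3.44% of all genes), with a median log2 ratio of -0.44, and the sum over all 16 had a ratio of -0.52 (-0.60 to -0.45). In marker-rich members, which leave out 2 control and 24 DKO cells, the median of these 11 genes was -0.24. There the 16 genes summed to 10409 CPM in control and 8207 CPM in DKO. The 24 DKO members left out held 175665 of the 703410 UMIs and microglia genes at 1913 CPM. What sets the difference that remains was not tested. *P2ry12*, the purine receptor by which microglia sense ATP, was at 585 CPM (114 UMIs, 21 of 39 cells) in control and 192 CPM (135 UMIs, 40 of 146 cells) in DKO, a log2 ratio of -1.61 (-1.98 to -1.24). It was found in 1 of 1069 control and 2 of 2242 DKO neurons. *Sparc*, a matrix protein of microglia, was at 1114 and 495 CPM (-1.17, -1.42 to -0.92), whereas in other kept cells its ratio was 0.03. *Siglech*, a sialic acid-binding receptor, was at 190 and 98.1 CPM (-0.95, -1.55 to -0.34). *Cst3*, the protease inhibitor cystatin C, was at 3794 and 2542 CPM. *Fcrls* (-0.11, -0.40 to 0.18) and *Trem2* (-0.25, -0.53 to 0.05) had intervals that hold 0, and *Cx3cr1* was higher in DKO (0.39, 0.03 to 0.76). The list was thus uneven, with the largest difference in *P2ry12* and *Sparc*. *Tmem119* (6 and 8 UMIs) and *Sall1* (4 and 5 UMIs), which define mature microglia, were near the floor in both.

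Border macrophage genes were higher in DKO members. Of 10 counted genes 8 were at least 2-fold higher and none was lower, with a median log2 ratio of 1.39, beside 4.16% and 3.44% of all genes. *Lyve1*, *Stab1*, *F13a1*, *Ednrb* and *Igfbp4* were under 100 CPM in control and were counted through their DKO level, which favours a higher ratio. *Mrc1*, the mannose receptor, was at 118 CPM in control and 365 CPM in DKO (1.63, 1.01 to 2.31). The control value rests on few cells: 4 of 39 cells held 23 UMIs and 1 of them 17, against 257 UMIs in 53 of 146 DKO cells, and without that control cell and the richest DKO cell the levels were 33.2 and 332 CPM. *Lyve1*, a hyaluronan receptor, was at 97.5 CPM (3 cells, 15 of 19 UMIs in 1) and 243 CPM (31 cells). *Maf*, a transcription factor of resident macrophages, was at 139 and 434 CPM (1.65, 1.08 to 2.27), and the endocytic adaptor *Dab2* at 221 and 586 CPM (1.41, 0.95 to 1.90). *Stab1*, a scavenger receptor, was at 66.7 and 213 CPM, *F13a1*, a clotting factor subunit, at 92.4 and 202 CPM, *Ednrb*, an endothelin receptor, at 77.0 and 209 CPM, and *Igfbp4*, an IGF-binding protein, at 66.7 and 172 CPM. *Pf4*, a platelet chemokine also made by these macrophages, did not share this, at 180 and 200.5 CPM (0.16, -0.38 to 0.74). In other kept cells *Maf* had a log2 ratio of -0.87 and *Stab1* of -0.41.

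**Figure D2:**
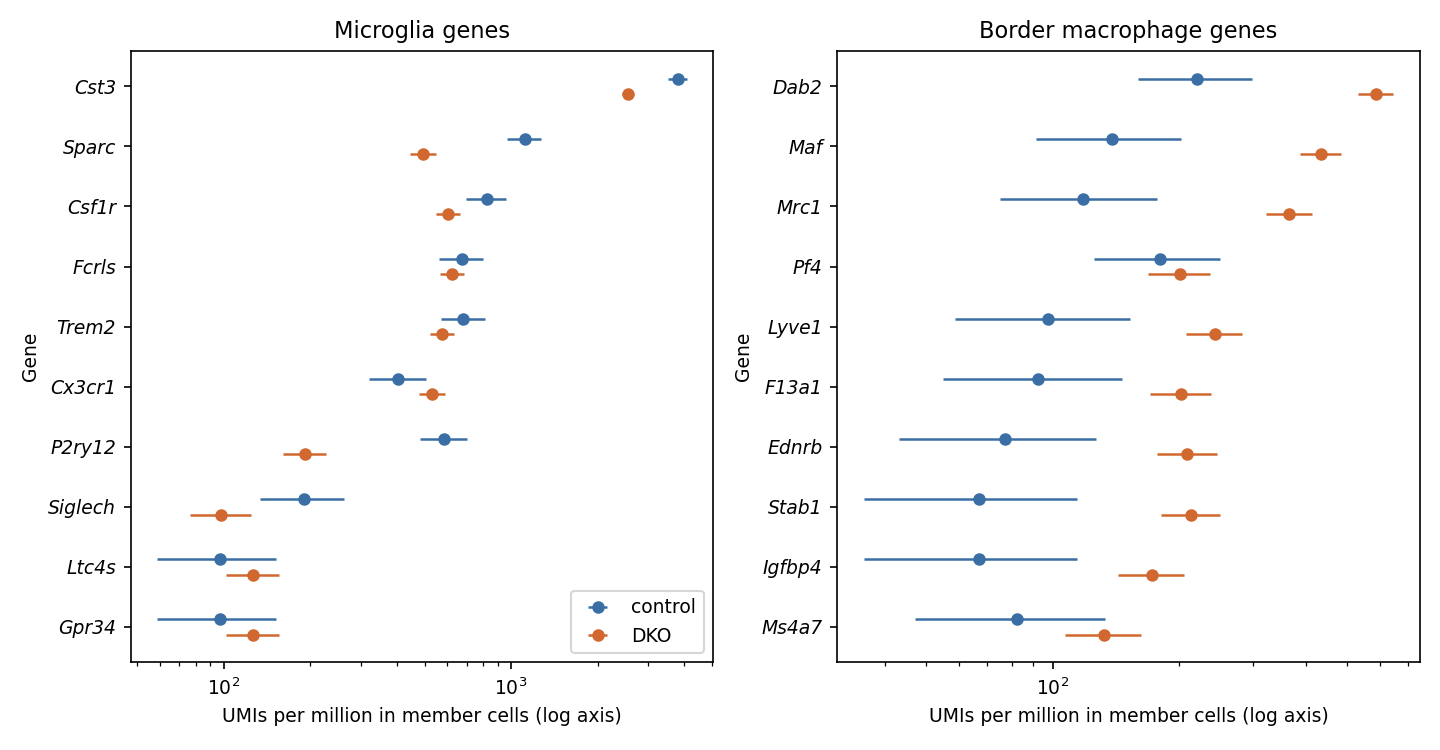
Levels in member cells of the microglia genes (left) and border macrophage genes (right) with a mean of at least 100 CPM, 10 genes on either side, as CPM on a log axis, with 95% counting intervals. *P2ry12* and *Sparc* are lower in DKO, and 8 of the 10 border genes are at least 2-fold higher in DKO.

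Cell by cell, the same genes were counted as at least 2 of *Mrc1*, *F13a1*, *Pf4*, *Ms4a7*, *Cd163* and *Lyve1* (border genes) and at least 2 of *P2ry12*, *Sall1*, *Tmem119*, *Gpr34*, *Siglech* and *Fcrls* (microglia genes). After thinning to 2000 UMIs, which left out 15 control and 54 DKO members, border genes were found in 4 of 24 control cells (16.7%, 4.74 to 37.4) and 30 of 92 DKO cells (32.6%, 23.2 to 43.2). Microglia genes without border genes were found in 11 of 24 control cells (45.8%, 25.6 to 67.2) and 24 of 92 DKO cells (26.1%, 17.5 to 36.3). The intervals of the 2 libraries overlap for both, and they speak of these cells and not of the genotypes. Without thinning, border genes were found in 4 of 39 control (10.3%, 2.87 to 24.2) and 56 of 146 DKO cells (38.4%, 30.4 to 46.8), and these intervals of counting error do not overlap. Of 1069 control and 2242 DKO neurons none held 2 border or 2 microglia genes, which allows up to 0.344% and 0.164% by the exact interval.

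The 2 gene sets were not exclusive. Both were found in 1 control and 29 DKO members without thinning, and neither in 13 control and 48 DKO members, whose medians were 955 and 1196 UMIs. The classes are ranges of a count, not cell types: exactly 2 border genes were found in 0 control and 22 DKO cells, and exactly 1 in 3 and 21. In the control library the 4 cells with border genes held at least 4 of the 6, so they stood apart from the rest.

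**Figure D3:**
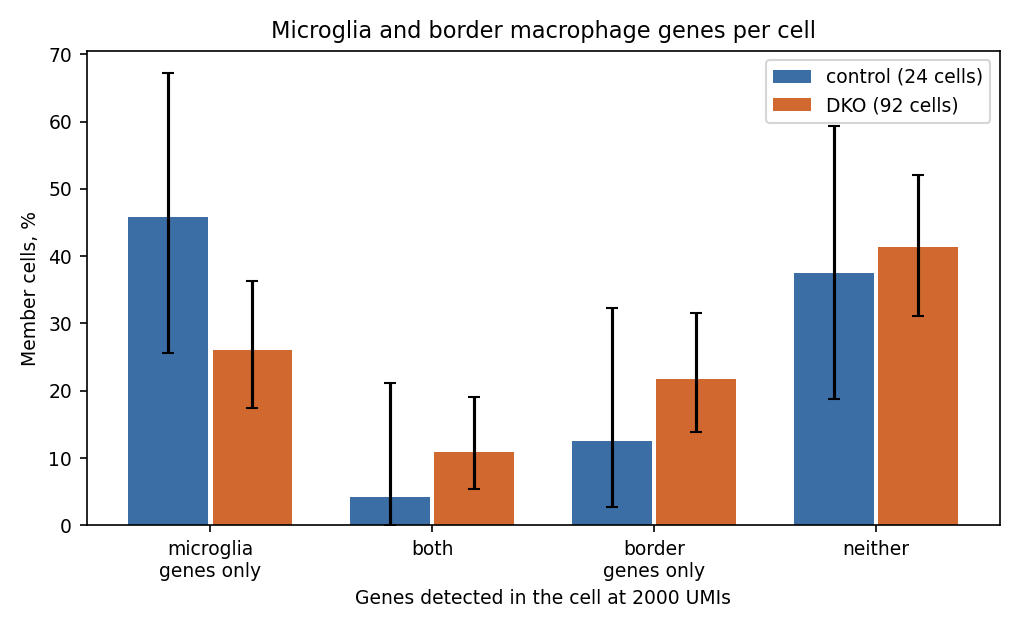
Share of member cells with at least 2 of 6 microglia genes, at least 2 of 6 border macrophage genes, both or neither, in cells thinned to 2000 UMIs; bars are percentages of 24 control and 92 DKO cells and error bars exact 95% binomial intervals. Cells with microglia genes only are 45.8% in control and 26.1% in DKO, and cells with border genes only 12.5% and 21.7%.

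Within the DKO library the 56 cells with border genes (292358 UMIs) were set beside the 42 cells with microglia genes only (255007 UMIs) for genes that did not set these classes. Endothelin receptor *Ednrb* was at 462 CPM in the border-gene cells and 7.84 CPM in the microglia-gene cells. The eosinophil chemokine *Ccl24* was at 226 and 3.92 CPM, and *Slc40a1*, the iron exporter ferroportin, at 325 and 47.1 CPM. *Bmp2*, a secreted growth factor, was at 510 and 19.6 CPM, the heat shock gene *Hspa1a* at 1149 and 62.7 CPM, and the transcription factor *Klf2* at 1105 and 58.8 CPM. The microglia-gene cells were higher in *Il1a*, the cytokine interleukin-1 alpha (27.4 and 239 CPM), *Sparc* (174 and 965 CPM), *Tgfbr1*, a TGF-beta receptor on which microglia depend (68.4 and 235 CPM), and *Csf1*, the ligand of *Csf1r* (335 and 898 CPM). Of 166 listed genes compared, 35 were at least 2-fold higher and 9 at least 2-fold lower in the border-gene cells. Lens markers were not among the 166. Of these, *Cryaa* was at 188 CPM in border-gene and 1012 CPM in microglia-gene cells, and *Cryab* at 178 and 647 CPM. In the microglia-gene cells 23277 UMIs came from 1 cell with lens markers at 30975 CPM. The other genes named were picked by the size of the ratio among the 166 after values were seen.

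**Figure D4:**
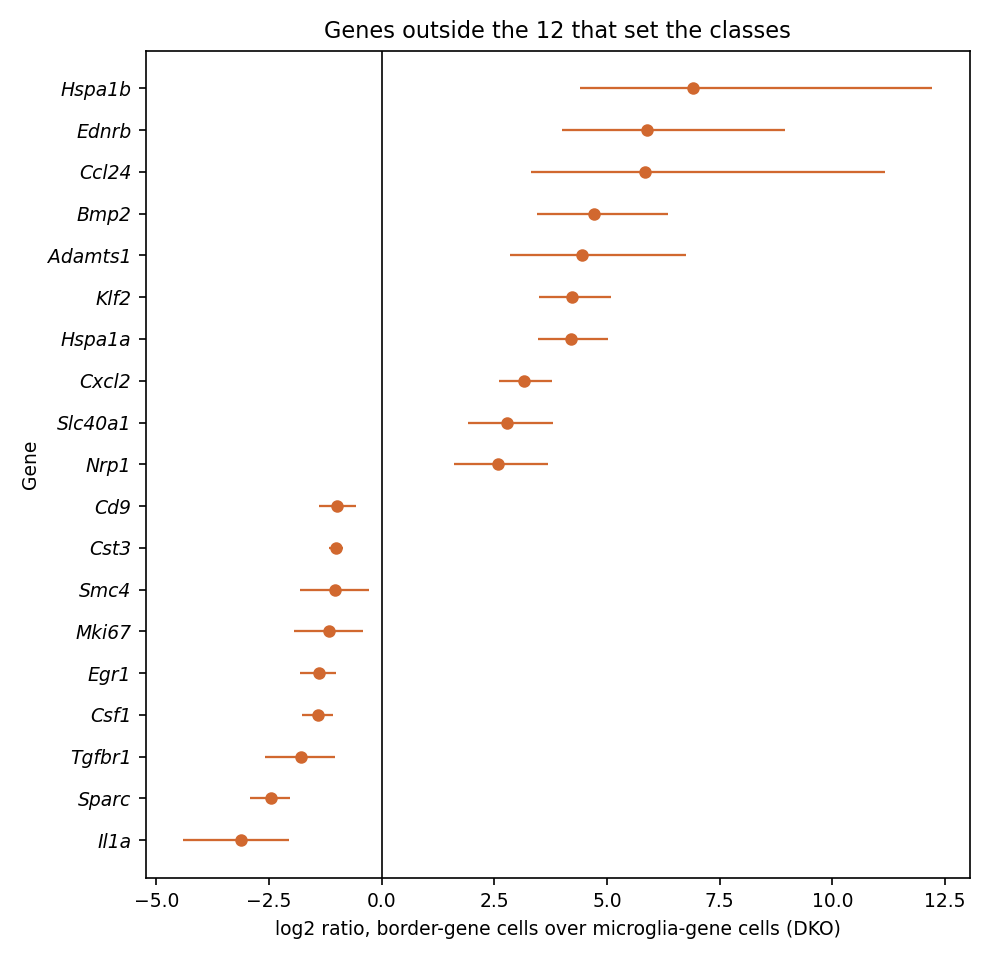
log2 ratio of levels in DKO members with border macrophage genes over DKO members with microglia genes only, with 95% counting intervals. Shown are the 10 highest and 9 of the 10 lowest of the 166 genes compared. These leave out lens markers and the 12 genes that set the classes. *Hspa1b*, *Ednrb*, *Ccl24* and *Bmp2* lie at the upper end and *Il1a* and *Sparc* at the lower end.

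The border-gene cells of the 2 libraries could be set side by side, though in control they were 4 cells with 39543 UMIs. Of these, 14332 UMIs came from 1 cell that was not marker-rich, and the 2 such control members held retinal progenitor markers at 3079 CPM. *Mrc1* was at 582 CPM in control and 821 CPM in DKO (0.50, -0.12 to 1.18) and *Lyve1* at 480.5 and 585 CPM (0.28, -0.40 to 1.05). Both intervals hold 0, but these 2 genes helped to choose the cells, so this is a description. The other genes that set the class are not compared here. *Jun*, a stress-induced transcription factor, was at 177 and 1608 CPM (3.18, 2.13 to 4.51), *Hspa1a* at 177 and 1149 CPM (2.70, 1.64 to 4.02) and *Maf* at 152 and 794 CPM (2.39, 1.24 to 3.85). The intervals of *Hspa1b*, a close copy of *Hspa1a*, at 405 and 469 CPM (0.21, -0.54 to 1.06) and of *Ednrb* at 379 and 462 CPM (0.28, -0.49 to 1.16) hold 0. *Bmp2* had 0 UMIs in control and 149 in DKO, at least 6.72-fold higher against a floor of 3 UMIs over the group. The neutrophil-attracting chemokines went the other way, *Cxcl2* with 3439 and 985 CPM (-1.80, -2.10 to -1.5) and *Cxcl1* with 1189 and 226 CPM (-2.40, -2.96 to -1.82). These 4 control cells held 136 of the 141 *Cxcl2* UMIs and all 47 *Cxcl1* UMIs of control members. For either gene, 1 of the 4 cells held more of these UMIs than the others together, which the counting intervals do not cover.

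Of the 1539 genes, *Bmp2*, counted through its DKO level, had the highest ratio of DKO over control. It had 2 UMIs in 1 of 39 control cells (10.3 CPM) and 155 UMIs in 33 of 146 DKO cells (220.4 CPM), a log2 ratio of 4.42 (2.55 to 7.48), while in other kept cells the ratio was 0.33. *Hspa1a*, also counted through its DKO level, was at 41.1 CPM (2 cells, 7 of 8 UMIs in 1) and 523 CPM (43 cells). Its ratio was 3.67 (2.68 to 4.89), against 0.03 in other cells. *Jun* was at 180 CPM (11 cells) and 847 CPM (77 cells), a ratio of 2.24 (1.75 to 2.77) against 0.13 in other cells. These genes met in the same DKO cells: of 33 cells with *Bmp2*, 29 held *Jun*, 27 *Mrc1* and 26 *Hspa1a*, whereas of the 113 cells without *Bmp2* 42.5% held *Jun* and 23.01% *Mrc1*. Detection of genes in a cell also moves with its UMI count. The part of UMI count in this overlap was not tested.

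The other 9 of the 12 highest ratios belonged to neurons and the lens. The cytoskeletal and axonal genes *Nefm*, *Stmn2*, *Ina*, *Gap43*, *Tubb2b* and *Tubb3* had log2 ratios of 2.37 to 3.43, and the crystallins *Cryab*, *Cryaa* and *Crybb3* of 2.43 to 4.11, but in both libraries their levels in members were no more than 1.001 times those of other kept cells. In DKO 24 members that were not marker-rich held 1183 of the 1315 UMIs of 10 neuron markers, and 7 of these cells held at least 4 of the 5 genes that defined neurons. For the lens, 58.8% of the 1227 DKO UMIs of 12 lens markers lay in 1 cell and 84.4% in 3. In marker-rich members *Tubb2b* had a ratio of 0.89, *Stmn2* of 0.04, *Nefm* of -0.48, *Ina* of -1.35, *Gap43* of -0.30 and *Tubb3* of -0.34. Without 11 mixed DKO members with at least 1% of UMIs in lens, neuron, retinal progenitor and pigment markers, *Cryaa* was at -0.85, *Cryab* at -0.47 and *Crybb3* at -1.72. Control had no such mixed member. In marker-rich members the 12 lens markers summed to 593 CPM in control and 739 CPM in DKO. Most UMIs of neuron and lens markers thus lay in a few DKO cells that held macrophage markers beside them. Scrublet, a doublet caller, marked 2 of the 11 mixed cells. Retinal progenitor markers summed to 657 CPM in control and 658 CPM in DKO, but 85.2% of the control UMIs lay in 3 cells. They were at 337 and 421 CPM in marker-rich members and at 3079 and 1372 CPM in the others, so control too had cells with such RNA.

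The 12 lowest ratios belonged to *P2ry12* and to 11 genes of varied function. All of the 12 but *P2ry12*, *Neat1* and *Hmox1* were under 100 CPM in DKO. They were counted through their control level, which favours a lower ratio. *Srxn1*, an antioxidant enzyme, was at 272 and 73.9 CPM (-1.88, -2.46 to -1.30), the cytolinker *Plec* at 205 and 58.3 CPM and the MAP kinase phosphatase *Dusp2* at 190 and 54.0 CPM. *Rab7b*, a GTPase of late endosomes, was at 318 and 95.2 CPM (-1.74, -2.26 to -1.22), and *Tcirg1*, a subunit of the proton pump that acidifies lysosomes, at 175 and 52.6 CPM. The nuclear noncoding RNA *Neat1* was at 569.8 and 185 CPM (-1.62, -2.0 to -1.25), the surface peptide gene *Cd52* at 287 and 93.8 CPM and the cell cycle inhibitor *Cdkn1a* at 277 and 92.4 CPM. *Zbtb7a* (231 and 82.5 CPM), a transcriptional repressor, and *Vmp1* (175 and 62.6 CPM), which acts in autophagosome formation, were the last of these. *Hmox1*, heme oxygenase, was at 729 and 237 CPM, but 110 of its 142 control UMIs lay in 1 cell, and without the richest cell of each library its ratio was 0.27 in place of -1.62. The other 11 genes kept ratios from -1.93 to -1.29 without their richest cells and from -1.79 to -1.25 in marker-rich members, so none of the 11 rested on 1 cell.

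**Figure D5:**
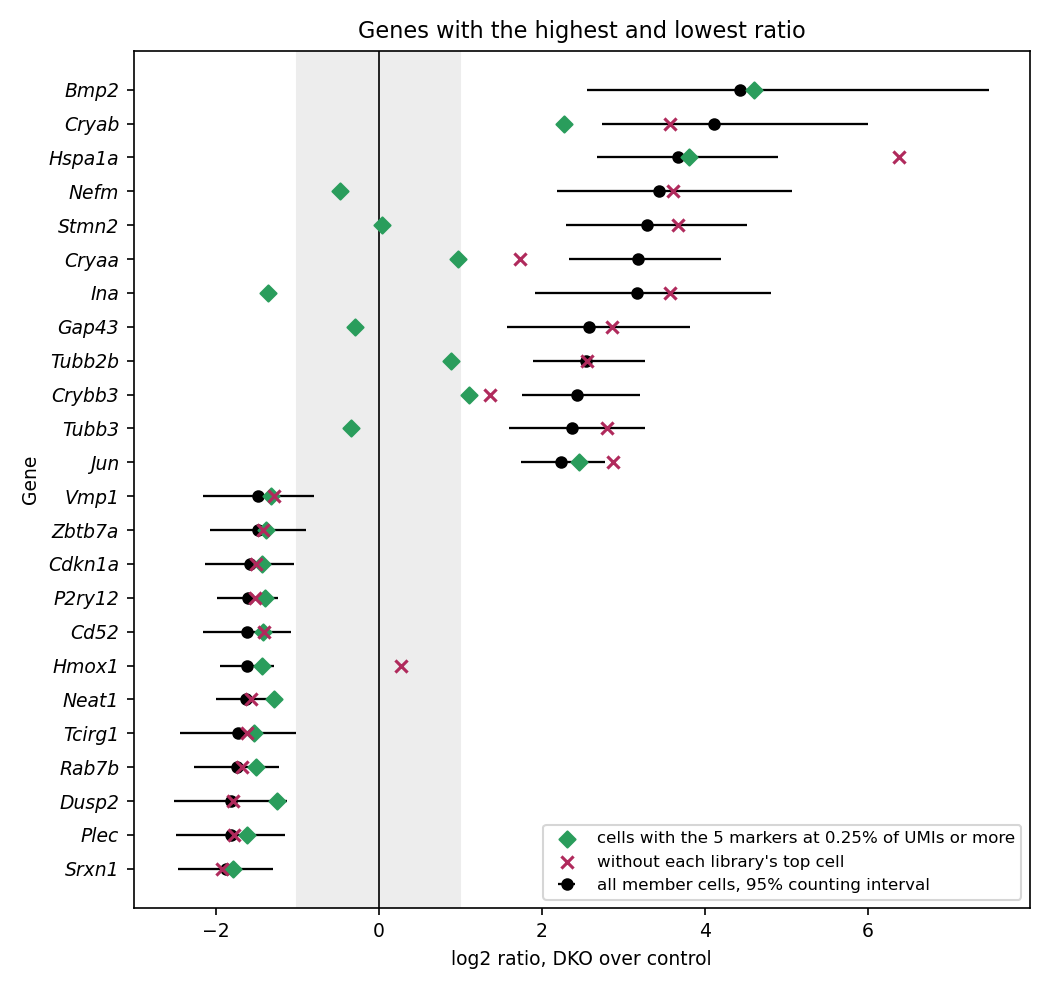
log2 ratio of DKO over control members for the 12 genes with the highest and the 12 with the lowest ratio. Circles are all members with 95% counting intervals, diamonds marker-rich members, and crosses all members without each library's richest cell for the gene; the grey band is under 2-fold, and *Bmp2* has no cross because no control UMI is left. Diamonds of *Stmn2*, *Nefm*, *Ina*, *Gap43* and *Tubb3* lie near or below 0 and that of *Tubb2b* at 0.89, and the cross of *Hmox1* moves to 0.27.

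Among signalling genes the complement list had 0 of 5 counted genes past the fold, but 3 of the 5 chose the members and are a description. All 5 had negative ratios with a median of -0.24, and *C3ar1* at -0.29 (-0.65 to 0.08). The Fc receptor and ITAM list, which holds *Tyrobp* and *Fcer1g* of the rule, had 0 of 10 past the fold and a median of -0.45 (-0.19 in marker-rich members), with the IgG receptor *Fcgr3* at 354 and 253 CPM and the inhibitory receptor *Sirpa* at 277 and 193 CPM. Of 6 counted Toll-like receptor genes only *Nfkb1*, an NF-kappaB subunit, was past the fold (293 and 125 CPM, -1.23), while its inhibitor *Nfkbia* was at 272 and 421 CPM (0.63, 0.20 to 1.08). Of 5 counted growth factor, cytokine and chemokine receptors *Csf2rb* (149 and 56.9 CPM), a chain shared by cytokine receptors, and *Tgfbr1* (267 and 129 CPM) were past the fold downwards. *Csf2rb* was counted through its control level. Beside these counts, 4.16% of all genes were past the fold upwards and 3.44% downwards.

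Chemokines and cytokines made up 10 counted genes, of which 0 were 2-fold higher and 2 lower, with a median of -0.77, beside 4.16% and 3.44% of all genes. The median of these genes was -0.21 in marker-rich members and 0.20 in members with microglia genes only, so its sign depends on which members are taken. *Ccl9* was at 282 and 128 CPM (-1.14, -1.64 to -0.63) and *Cxcl1* at 241 and 101 CPM (-1.26), with 29 of its 47 control UMIs in 1 cell. *Ccl2*, which attracts monocytes, was at 678 and 395 CPM (-0.78, -1.08 to -0.47), *Csf1* at 888 and 479 CPM (-0.89, -1.16 to -0.62), and *Ccl4* did not differ beyond counting error (0.06, -0.13 to 0.26). In members with microglia genes only *Ccl4* was at 929 and 2047 CPM, a ratio of 1.14. *Cxcl2* was at 724 and 458 CPM, with 72 of 141 control UMIs in 1 cell.

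A larger share of the counted genes of uptake than of digestion was past the fold. Among 8 counted phagocytic receptors and bridging molecules 3 were 2-fold higher, namely *Mrc1*, *Stab1* and *Gas6*, a bridge to dying cells (66.7 and 195 CPM, 1.55, 0.72 to 2.49), and *Dock2*, which drives actin through Rac, was lower (139 and 68.2 CPM, -1.02). Over all genes the shares were 4.16% and 3.44%. *Stab1* and *Gas6* were counted through their DKO level and *Dock2* through its control level. The median of the list was 0.14 in all members and -0.48 in members with microglia genes only. Of 29 counted lysosomal genes 0 were higher and 1 was lower, a share close to the 3.44% of all genes. The lower gene was *Pld4*, a nuclease (359 and 178 CPM, -1.02, -1.45 to -0.57). Of the 29 genes 22 had a negative ratio, and the median of the list was -0.34. The proteases *Ctsd* (3373 and 2384 CPM) and *Ctsb* (2895 and 2211 CPM) were the highest of these. In marker-rich members the median of the lysosomal list was -0.18.

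Lipid and iron genes held some of the most abundant transcripts of these cells. *Apoe*, the lipid carrier, was at 13604 and 11776 CPM (-0.21, -0.27 to -0.14), and *Spp1*, osteopontin, was in 10 of 39 control and 49 of 146 DKO cells at 791 and 1299 CPM (0.72, 0.47 to 0.97), with 208 of 914 DKO UMIs in 1 cell. *Plin2*, which coats lipid droplets, was at 457 and 634 CPM (0.47, 0.14 to 0.82), and *Lgals3*, a galectin of activated phagocytes, at 334 and 138 CPM (-1.27, -1.74 to -0.80), the 1 of 13 counted lipid and activation genes past the fold. The ferritin genes *Ftl1* (13450 and 11257 CPM) and *Fth1* (10313 and 6581 CPM) led the iron list, in which 0 of 9 counted genes were higher and 1, *Hmox1*, was lower. The shares over all genes were 4.16% higher and 3.44% lower.

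Transcripts of MHC class II were scant, whereas those of class I were not. The 8 MHC class II genes summed to 61.6 CPM in control and 49.8 CPM in DKO, and 2 had no UMI. The 15 MHC class I genes summed to 3034 and 2668 CPM, beside 1117 and 1055 CPM in other kept cells. MHC class I genes had 0 of 5 counted past the fold, with *B2m*, the light chain, at 719 and 661 CPM (-0.12, -0.40 to 0.16) and *H2-D1* at 380 and 212 CPM (-0.84, -1.25 to -0.42). Of 27 interferon response genes 2 were counted and neither was past the fold, *Ifitm2* at 128 and 208 CPM (0.69, 0.07 to 1.37) and *Ifi207* at 144 and 196 CPM (0.45, -0.15 to 1.09). Among all genes 4.16% were past the fold upwards and 3.44% downwards.

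Of 18 counted myeloid transcription factors 3 were 2-fold higher and 3 lower, beside 4.16% and 3.44% of all genes. *Maf*, *Klf2* (200.2 and 520 CPM, 1.38, 0.90 to 1.89) and the NF-kappaB regulator *Nfkbiz* (66.7 and 146 CPM, 1.13) were higher. *Mef2a* was at 529 and 192 CPM (-1.46, -1.84 to -1.08), *Cebpa*, a factor of myeloid commitment, at 139 and 64.0 CPM (-1.12) and *Id2* at 1047 and 496 CPM (-1.08, -1.33 to -0.82). *Cebpb* (1201 and 644 CPM, -0.90) and *Spi1* (-0.46, -0.85 to -0.05) were lower by less. *Nfkbiz* was counted through its DKO level and *Cebpa* through its control level. Among cells with microglia genes only *Klf2* had the opposite sign, -1.46, whereas *Maf* was at 0.67 and *Mef2a* at -1.20.

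Secreted growth, vessel and matrix factors had 10 counted genes, of which *Bmp2* and *Gas6* were higher and *Pdgfa* was lower (221 and 98.1 CPM, -1.17, -1.74 to -0.59). *Bmp2* and *Gas6* were counted through their DKO level and *Pdgfa* through its control level. *Igf1*, a growth factor made by macrophages, was at 175 and 223 CPM (0.35, -0.19 to 0.93), and *Tgfb1* at 200.2 and 108 CPM (-0.89, -1.47 to -0.29). Of 23 counted immediate early and stress genes 4 were higher (*Jun*, *Hspa1a*, *Klf2* and *Hspa1b*) and 2 lower (*Dusp1*, a phosphatase, at 380 and 138 CPM, and the nuclear receptor *Nr4a1* at 180 and 89.6 CPM). *Hspa1a* and *Hspa1b* were counted through their DKO level and *Nr4a1* through its control level. Over all genes the shares were 4.16% and 3.44%, and the median of the list was 0.09 in all members and -0.47 in members with microglia genes only. The list was divided, since *Junb* (1145 and 608 CPM, -0.91, -1.15 to -0.67) and *Egr1* (729 and 397 CPM, -0.88, -1.17 to -0.58) were lower while *Atf3* was higher (534 and 769 CPM, 0.53, 0.22 to 0.84). Of the 16 control *Hspa1b* UMIs in border-gene cells, all lay in 1 cell.

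Mitosis genes were found in members of both libraries. After thinning to 2000 UMIs at least 3 of 26 mitosis genes were found in 7 of 24 control members (29.2%, 12.6 to 51.1) and 20 of 92 DKO members (21.7%, 13.8 to 31.6). In neurons the shares were 6.89% and 4.55%, and in all other kept cells, mostly progenitors, 42.9% and 32.9%. Of 5 counted mitosis genes 0 were past the fold either way, with *Top2a* at 118 and 139 CPM (0.24, -0.43 to 0.96) and *Mki67* at 154 and 112 CPM (-0.46, -1.08 to 0.20). No DNA replication gene reached 100 CPM in the mean, and the 26 summed to 693 and 994 CPM (0.52, 0.25 to 0.80). Of 12 counted glycolysis and hypoxia genes 0 were past the fold and the median was 0.32, with *Gapdh* at 1304 and 1663 CPM (0.35, 0.15 to 0.55). For comparison, 4.16% of all genes were past the fold upwards and 3.44% downwards. Of 12 counted mitochondrially encoded genes 11 had a negative ratio, none past the fold, and their sums were 67871 and 55015 CPM, beside 58605 and 49538 CPM in other kept cells.

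Red blood cell RNA was found at low levels in members of both libraries. The 10 markers in the files summed to 991 and 566 CPM, and *Hbb-y*, an embryonic globin, was at 349 and 165 CPM (-1.08, -1.53 to -0.63), beside a ratio of -1.26 in other kept cells.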

How the data were processed

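The authors mapped reads of 1 control and 1 DKO 10x library (3′ kit, version 3) to mm10 with Cell Ranger 3.1.0 and deposited raw UMI counts per gene and called cell. From these counts members were chosen by the marker rule, and UMIs were summed over members and given per 1000000 (CPM). Levels have exact Poisson intervals, shares exact binomial intervals and ratios the exact binomial split of the UMIs. With 1 library per genotype no test was made and calls are 2-fold differences among genes with a mean of at least 100 CPM. The members and gene lists were chosen with earlier results of these data known. Named are the marker genes, the 12 highest and 12 lowest ratios whose interval excludes 0, the 15 genes highest over other cells, and of each list the genes past 2-fold and up to 5 of the most abundant. Any other gene named, and those of the class comparison, were picked after values were seen. *Clec7a* and *Ahsp* were not analysed here, and single values of a few counted genes are not reported here. Scrublet, as run in scanpy 1.11.5, marked 226 control and 355 DKO cells as doublets, which stayed in the main values. Thinning used a fixed seed. Intervals were tested on simulated Poisson counts drawn independently for each gene, so the test does not cover genes whose UMIs gather in a few cells. Python 3.11.15, numpy 2.4.6, scipy 1.17.1, pandas 2.3.3 and matplotlib 3.10.9 were used.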

Additional observations from a re-analysis of the deposited data

How the results depend on the processing

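With 39 control members, 1 cell can set a control value, and no alternative replaces replicate embryos. The share of members was 0.30% in control and 0.766% in DKO after thinning to 2000 UMIs, and in DKO 1.53% with 2 or more of the 5 genes, 1.003% with 4 or more and 1.06% for marker-rich cells, a rule added after seeing the data. Of members thinned to 2000 UMIs, those with border genes were 12.5% in control and 21.7% in DKO when 3 genes were needed, in place of 16.7% and 32.6%. Genes 2-fold higher and lower in DKO were 123 and 83 with each cell weighted alike, 194 and 146 at a mean of 50 CPM, and 22 and 18 at 200 CPM. With hemoglobin, mitochondrial and ribosomal protein genes left out of the total, 95 genes were higher and 101 lower of 2036. Genes 2-fold higher than in other cells were 646 at 50 CPM and 181 at 200 CPM. The medians of the microglia and border lists kept their signs under every alternative run. The median of the growth factor, cytokine and chemokine receptors turned to 0.058 with the other total. Over the genes counted in all members, the median of chemokines and cytokines turned to 0.20, of phagocytic receptors to -0.48 and of immediate early and stress genes to -0.47 in members with microglia genes only, and that of neuron markers to -0.34 there and -0.32 in marker-rich members. In marker-rich members the medians of Toll-like receptors (0.15), MHC class I (0.048) and secreted factors (0.051) turned too. With genes counted anew, the lens median was -0.64 without mixed cells and -0.55 in marker-rich cells. Over the genes counted in all members, the lens median in marker-rich cells stayed positive at 0.97. Signs that turned without mixed cells were those of *Cryaa* (-0.85), *Cryab* (-0.47), *Crybb3* (-1.72) and *Gap43* (-0.31). In marker-rich cells they were *Gap43* (-0.30), *Ina* (-1.35), *Nefm* (-0.48), *Tubb3* (-0.34) and *Cxcl1* (0.28). In cells with microglia genes and without border genes, also added later, they were *Ccl9* (1.41), *Gap43* (-0.72), *Hspa1b* (-0.91), *Klf2* (-1.46) and *Nefm* (-2.91). With each cell weighted alike *Cxcl1* was at 0.079 and *Nr4a1* at 0.17, and *Hmox1* was at 0.27 without its richest cells. The cause of these changes was not tested. Leaving out Scrublet calls turned no sign. No paired analysis was possible because the labels name only 1 library for either genotype.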
